A study of Homo sapiens with 18 samples.

Results

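The comparison is between the transcript responses of 2 human lymphoma lines, SUDHL4 and SUDHL6, to an inhibitor of BCL6. For each gene the change under the inhibitor in SUDHL6 was subtracted from the change in SUDHL4, on a scale of log2(FPKM + 1), where FPKM are fragments scaled by transcript length and by library size. A positive difference therefore means a higher response in SUDHL4, either a larger rise or a smaller fall. Genes entered as members when their mean was at least 1 FPKM in the DMSO libraries of both lines, so that no difference came from a gene absent at baseline in one line. There were 9576 members among 11346 named loci tested and 26004 named loci in all.

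Both lines are labelled as germinal centre B cell type diffuse large B cell lymphoma. The 4 groups were SUDHL6 with DMSO, SUDHL6 with the BCL6 inhibitor, SUDHL4 with DMSO and SUDHL4 with the BCL6 inhibitor, with 3 messenger RNA sequencing libraries each, 12 of the 18 libraries of the series. The culture medium of all 4 was RPMI1640 with 10% fetal bovine serum. Sample titles give 12 h of treatment and source names give 24 h, and which holds was not settled here. The labels name neither the compound nor its dose, and nothing says that replicates came from separate cultures, so a p-value here measures only the spread between these samples, which may be technical. In such bulk libraries a change in how many cells are in a given state and a change in RNA per cell cannot be told apart.

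BCL6 is a transcriptional repressor that holds germinal centre B cells in a proliferating, undifferentiated state and recruits corepressor complexes to its target genes. Diffuse large B cell lymphomas of the germinal centre type often keep it expressed. HIF factors drive genes of glycolysis and of the response to low oxygen, NRF2 drives genes of the defence against oxidants, and MYC drives genes of ribosome production and growth.

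The libraries differed in ways that bear on what follows. Replicate 3 of SUDHL6 stood apart under both treatments. It correlated with its own group at 0.855 to 0.874 (Pearson's r across genes), whereas other pairs within a group reached 0.955 to 0.973. The median SD between replicates on the log2 scale was 0.143 in DMSO and 0.211 under the inhibitor in SUDHL6, and 0.0852 and 0.094 in SUDHL4. The files hold no counts, so depth is unknown in absolute terms. A relative depth read from whole-read steps was 0.838 and 0.888 in treated SUDHL6 replicates 1 and 2 beside 1.11 and 1.12 in their controls. In SUDHL4 it was 0.748 to 0.932 with the inhibitor beside 1.08 to 1.24 with DMSO, and its part in the results was not tested. The unnamed locus of the mitochondrial chromosome was above 0 in every treated SUDHL4 library and in no SUDHL4 control. In SUDHL6 that locus was above 0 in replicate 3 alone, under both treatments. Whatever set these libraries apart cannot be told from the treatment in SUDHL4, and its part in the results was not tested. All 6 B cell markers reached 1 FPKM in at least 1 library of every group, and summed to 1144 to 1189 FPKM in SUDHL6 controls, 492 to 660 FPKM in treated SUDHL6, 1414 to 1463 FPKM in SUDHL4 controls and 1136 to 1248 FPKM in treated SUDHL4. The 12 T and NK cell markers summed to at most 2.3 FPKM, with 4 to 7 listed at 0 by group, and the 9 monocyte markers to at most 3.43 FPKM, with 2 to 4 listed at 0. The 12 fibroblast and epithelial markers summed to 52.2 to 56.3 FPKM in SUDHL4 with DMSO, 16.4 to 17.7 FPKM in SUDHL4 with the inhibitor and at most 1.48 FPKM in SUDHL6. DCN, a matrix proteoglycan, and THY1, a surface glycoprotein, carried that sum and were listed at 0 in all SUDHL6 libraries, and their part in the results was not tested.

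The responses of the lines were of like size and mostly shared their direction. The median absolute change of the members was 0.58 in SUDHL4 and 0.54 in SUDHL6 on the log2 scale. Across the 9576 members, which are not independent replicates, the changes in the lines correlated with a Pearson's r of 0.739 and a Spearman's rank correlation of 0.80, and 82% of members had the same sign in both. In SUDHL4 2796 members rose and 3715 fell (29.2 and 38.8%), and in SUDHL6 2834 rose and 3409 fell (29.6 and 35.6%). Of the 4869 members past the test in the same direction in both lines, 4037 were not past the test of the difference.

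The test of the difference called 857 members higher and 1172 lower in SUDHL4 at a Benjamini-Hochberg adjusted p under 0.05 in limma, which is 8.95 and 12.2% of members. Among all 11346 loci tested, 9.97% were higher and 13.4% lower. The difference reached at least 1 on the log2 scale in 210 of the higher and 186 of the lower members. The 3 by 3 treated-minus-DMSO differences of the lines did not overlap for 804 of the higher and 1112 of the lower members. Over all 9576 members, at any adjusted p, they did not overlap for 2344. These counts come from the same values as the test and are no separate support for it. Without SUDHL4 DMSO replicate 1 the test called 502 higher and 723 lower, without SUDHL4 DMSO replicate 2 it called 528 and 763, and without SUDHL4 inhibitor replicate 1 it called 530 and 766. Without both SUDHL6 replicate 3 libraries it called 1002 and 1368. With median-ratio scaling it called 1096 and 1070, and the excess of lower members was not seen.

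Of the 2029 members called, 166 changed past the test in opposite directions in the lines. Of those higher in SUDHL4, 206 rose in SUDHL4 and were not past the test in SUDHL6, 186 rose in both, 225 fell in SUDHL6 and were not past the test in SUDHL4, and 175 fell in both. Of those lower in SUDHL4, 369 fell in SUDHL4 and were not past the test in SUDHL6, 354 fell in both, 223 rose in SUDHL6 and were not past the test in SUDHL4, and 117 rose in both. Opposite changes, past the test in each line, were found for 63 members that rose in SUDHL4 and fell in SUDHL6 and for 103 that fell in SUDHL4 and rose in SUDHL6. With the replicate number as a block the first of these counts was 104. The 3 members just inside the baseline minimum were VWCE, LTBP3 and CATSPER2, with SUDHL4 DMSO means of 1.001, 1.002 and 1.003 FPKM. Just outside it lay GALNT6 at 0.9989 FPKM in SUDHL6 DMSO, and WDSUB1 and MTOR-AS1 at 0.9987 and 0.9979 FPKM in SUDHL4 DMSO.

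**Figure D1:**
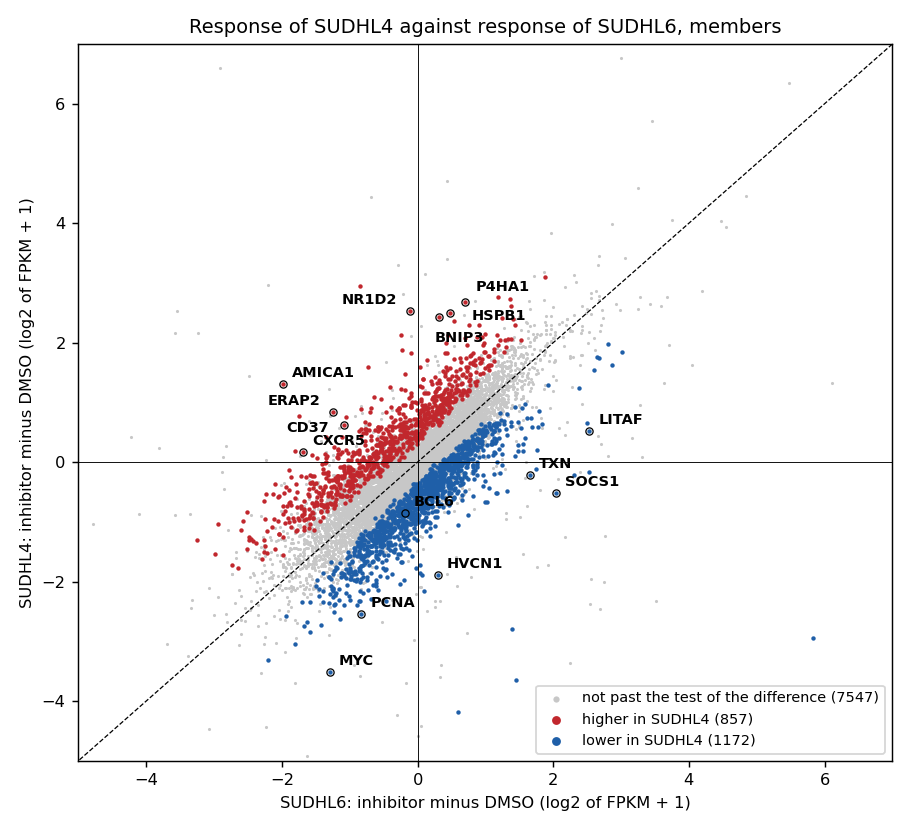
Change under the inhibitor in SUDHL6 (horizontal axis) against SUDHL4 (vertical axis), both as log2 of FPKM + 1, with 1 point per member and a dashed line of equal change; 13 members lie outside the axes. Points lie along the line (r 0.739), with 857 members called higher in SUDHL4 in red and 1172 called lower in blue.

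BCL6 itself fell in SUDHL4 and was not past the test in SUDHL6. Its locus on chromosome 3 (hg19, 187388558 to 187463515) measured 74, 99.8 and 72.8 FPKM in the SUDHL6 controls (replicates 1 to 3) and 61.8, 84.8 and 68.4 FPKM in treated SUDHL6. The SUDHL4 controls gave 132, 139 and 123 FPKM and the treated SUDHL4 libraries 72.6, 71.9 and 72.5 FPKM. The treated SUDHL4 libraries lay below all of their controls, at about the level that SUDHL6 had under either treatment. The difference in response was -0.66 (SE 0.19, adjusted p = 0.0338). That call was lost in 10 of 25 alternatives, with adjusted p from 0.00492 to 0.0839, among them 8 that left out 1 library, the one without both SUDHL6 replicate 3 libraries and median-ratio scaling.

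The list of glycolysis and hypoxia genes stood higher in SUDHL4 by the largest share of the lists with 10 or more members. Of its 21 members 14 were higher in SUDHL4 and none was lower, 66.7% against 8.95% of all members. The median change was 0.91 in SUDHL4 and 0.15 in SUDHL6, and the median difference was 0.85 against -0.03 for all members. Of the 14, 12 rose in SUDHL4. Of these 12, 6 also rose in SUDHL6, 3 were not past the test there and 3 fell there. The other two, GPI and HK2, fell in SUDHL6 and were not past the test in SUDHL4. Over all alternatives 12 to 15 members were higher. A further 6 genes of the list, among them GAPDH, LDHA and ALDOA, lay only in loci merged with other genes and were not counted.

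Sequences upstream of the leading genes of this list, BNIP3 and P4HA1, are shown because HIF factors are known to bind sites with the core ACGTG. Both are the 250 bases before the start site from RefSeq (GRCh38.p14, minus strand of chromosome 10), with matches to ACGTG on either strand in capitals. They lie at chr10:131981924-131982173 and chr10:73096867-73097116.
BNIP3: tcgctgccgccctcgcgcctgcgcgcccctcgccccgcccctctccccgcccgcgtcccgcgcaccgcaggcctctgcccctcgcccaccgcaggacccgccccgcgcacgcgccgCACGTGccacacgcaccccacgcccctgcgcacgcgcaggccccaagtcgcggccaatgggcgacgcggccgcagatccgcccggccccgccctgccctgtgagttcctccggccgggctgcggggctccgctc
P4HA1: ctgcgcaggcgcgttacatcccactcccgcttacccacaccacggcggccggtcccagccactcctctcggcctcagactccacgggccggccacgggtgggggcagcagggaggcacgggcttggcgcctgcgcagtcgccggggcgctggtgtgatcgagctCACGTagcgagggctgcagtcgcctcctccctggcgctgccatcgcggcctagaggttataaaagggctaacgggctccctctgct
BNIP3 held the core on both strands as 1 palindrome, CACGTG, which is also the E-box bound by MYC and other factors, with the overlapping matches starting at positions -134 and -133 from the start site. P4HA1 held 1 match, on the opposite strand, starting at position -86. The core stood in 18.5% of all 35116 such windows in the table, since a gene can have several start sites, and in 23.2% of the windows of members. It stood in 12 of 39 windows of the list's members (30.8%) and in 10 of 18 windows of those past the test (55.6%), which belonged to 9 of 12 genes. A total of 7 motifs were searched, and ACGTG and the genes shown were chosen after values had been seen. The table held a window for 6106 of 9501 member names (64.3%), under the 80% needed for a comparison of members with all promoters, so these shares are descriptions.

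BNIP3, a mitochondrial protein of mitophagy and cell death, measured 15.2, 18.2 and 20.8 FPKM in SUDHL6 controls and 25, 20.9 and 21.9 FPKM in treated SUDHL6. SUDHL4 values were 27, 25 and 45.2 FPKM without and 180, 170 and 170 FPKM with the inhibitor. Every treated SUDHL4 library lay far above every other library, and the response of the lines did not overlap. The difference was 2.12 (SE 0.27, adjusted p = 0.000726), a rise of 2.43 in SUDHL4 beside 0.31 in SUDHL6 (adjusted p = 0.184). P4HA1, a catalytic subunit of the prolyl hydroxylase that modifies collagen, measured 10.7, 11.7 and 16.7 FPKM in SUDHL6 controls and 23.6, 18.4 and 22.5 FPKM in treated SUDHL6. For SUDHL4 the levels were 14.7, 14.1 and 28.4 FPKM with DMSO against 124, 125 and 116 FPKM with the inhibitor. It thus rose in both lines, to higher levels in SUDHL4, and the difference was 1.98 (SE 0.34, adjusted p = 0.00314).

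SUDHL4 DMSO replicate 3 was the highest control of SUDHL4 for both genes. Without it the differences were 2.38 for BNIP3 and 2.29 for P4HA1, and 13 members of the list were higher in SUDHL4. BNIP3L, a paralog of BNIP3 with a like role, went from 29.3 ± 12.9 to 194 ± 5.88 FPKM in SUDHL4 and from 9.64 ± 1.34 to 23.2 ± 2.94 FPKM in SUDHL6 (SD, n = 3). Its difference was 1.58 (SE 0.33, adjusted p = 0.00745). PFKFB3, whose product raises the activator of phosphofructokinase, measured 17.1, 17.1 and 20.3 FPKM in SUDHL4 controls and 52.3, 53 and 50.8 FPKM in treated SUDHL4. In SUDHL6 it was at 12.2, 13.8 and 24.1 FPKM and at 14.9, 11.3 and 16.2 FPKM, and the groups overlapped there. The difference was 1.65 (SE 0.30, adjusted p = 0.00408).

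Glycolytic enzymes split between the lines. PGAM1, phosphoglycerate mutase, went from 164 ± 5.44 to 295 ± 15.4 FPKM in SUDHL4 and from 183 ± 55.9 to 130 ± 21 FPKM in SUDHL6, a difference of 1.30 (adjusted p = 0.00595). ENO1, enolase, went from 479 ± 13.1 to 722 ± 47.6 FPKM in SUDHL4 and from 701 ± 136 to 533 ± 62.7 FPKM in SUDHL6, a difference of 0.97 (adjusted p = 0.00526). PFKP, a phosphofructokinase, likewise rose in SUDHL4 and fell in SUDHL6 (difference 1.17, adjusted p = 0.00156). These 3 enzymes changed in opposite directions. TPI1, triosephosphate isomerase, rose in both lines, from 595 ± 64.9 to 1758 ± 117 FPKM in SUDHL4 and from 406 ± 64.3 to 562 ± 42.8 FPKM in SUDHL6 (difference 1.09, adjusted p = 0.00222). HK2, hexokinase, fell from 18.4 ± 0.267 to 9.52 ± 2.41 FPKM in SUDHL6 and was at 21.4 ± 1.03 and 24.1 ± 0.755 FPKM in SUDHL4 (difference 1.07, adjusted p = 0.00286). PGK1 (0.76), EGLN1 (0.80), the oxygen sensor, SLC2A1 (0.69), the glucose carrier, GPI (0.85) and VEGFA (1.23), a vessel growth factor, completed the 14. VEGFA rose in both lines, from 11.2 ± 5.89 to 96.6 ± 6.49 FPKM in SUDHL4 and from 24.6 ± 2.48 to 94 ± 18.8 FPKM in SUDHL6. The treated levels of the lines were close, the SUDHL4 controls were lower, and the difference was past the test (adjusted p = 0.0401) although the replicate differences of the lines overlapped.

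Among the 7 members not past the test were the HIF subunit HIF1A (-0.26, adjusted p = 0.199) and KDM3A, a hypoxia-induced demethylase (0.21, adjusted p = 0.648). KDM3A rose in both lines, by 2.31 in SUDHL4 and 2.09 in SUDHL6. PFKL, PFKM, HK1, LDHB and ANKRD37 had differences from -0.46 to 0.47.

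**Figure D2:**
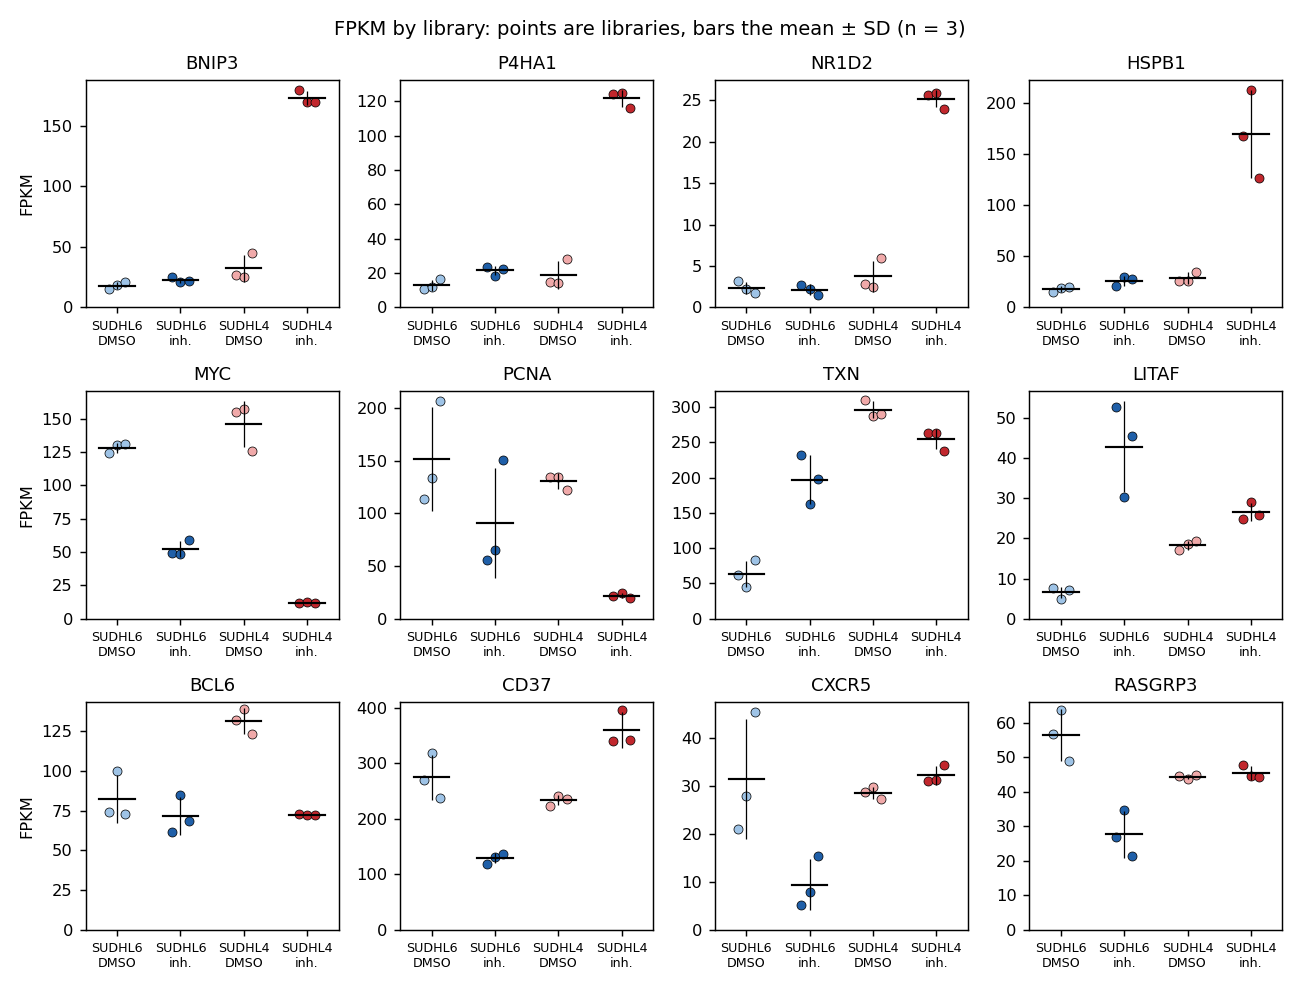
FPKM of 12 genes (vertical axes, linear, from 0) in the 4 groups, with points for libraries and bars for the mean ± SD (n = 3). BNIP3 and P4HA1 in treated SUDHL4 stand above all other libraries, MYC in treated SUDHL4 lies below all others, and RASGRP3 and CD37 fell in SUDHL6 libraries.

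The list of NRF2 response genes leaned the other way. Of 18 members 7 were lower in SUDHL4 and 1, the pentose phosphate enzyme TKT, was higher (38.9 and 5.56%, against 12.2 and 8.95% of all members), and the median change was 0.39 in SUDHL4 and 1.47 in SUDHL6. Over all alternatives 6 to 8 members were lower. The higher count was 0 without any 1 of the SUDHL4 libraries, SUDHL6 inhibitor replicates 1 and 2, and SUDHL6 DMSO replicate 2. Of the 7, 6 rose in SUDHL6. Of these, GSR, SRXN1 and TALDO1 also rose in SUDHL4, and TXN and PRDX1 were among those not past the test there. The other of the 7, TXNIP, was not past the test in SUDHL6 and fell in SUDHL4, so its call was not a smaller rise.

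TXN, the antioxidant protein thioredoxin, measured 61.4, 45.4 and 83 FPKM in SUDHL6 controls and 232, 162 and 198 FPKM in treated SUDHL6. The SUDHL4 controls gave 310, 288 and 291 FPKM and the treated SUDHL4 libraries 264, 263 and 238 FPKM. The SUDHL6 groups separated from a low baseline, whereas SUDHL4 began above the treated level of SUDHL6. The difference was -1.87 (SE 0.27, adjusted p = 0.0013). GSR, glutathione reductase, measured 12.5, 13.2 and 14.8 FPKM in SUDHL6 controls and 49.8, 39.5 and 38.2 FPKM in treated SUDHL6, and in SUDHL4 56.6, 59 and 61.4 FPKM and 76.7, 77.6 and 80.7 FPKM. It rose in both lines, by a ratio of 2.99 in SUDHL6 and 1.32 in SUDHL4 on the FPKM + 1 scale, with a difference of -1.18 (SE 0.14, adjusted p = 0.000515).

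TALDO1, transaldolase, had a difference of -0.94 (adjusted p = 0.0112), PRDX1, a peroxiredoxin, of -0.94 (adjusted p = 0.0164) and SRXN1, sulfiredoxin, of -0.83 (adjusted p = 0.046). TXNIP, which binds thioredoxin, fell in SUDHL4 from 97.6 ± 6.16 to 27.2 ± 2.55 FPKM (difference -1.32, adjusted p = 0.0106), and its locus spans far more than the gene, from 144146811 to 146467744 on chromosome 1. Some members that rose in both lines were not past the test of the difference: SQSTM1 (-0.61, adjusted p = 0.497), ABHD4 (-0.28, adjusted p = 0.546), TXNRD1 (-0.19, adjusted p = 0.734) and NFE2L2, which encodes NRF2 (0.03, adjusted p = 0.961). The antioxidant element TGACNNNGC stood in 10.9% of all windows, in 5 of 21 windows of the list's members (23.8%) and in 0 of 6 windows of those past the test.

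MYC fell in both lines and further in SUDHL4. Its locus on chromosome 8 (hg19, 128747400 to 128754863) measured 124, 130 and 131 FPKM in SUDHL6 controls and 48.9, 48.8 and 58.8 FPKM in treated SUDHL6. SUDHL4 values were 155, 157 and 126 FPKM without and 11.5, 12.4 and 11.6 FPKM with the inhibitor. The baselines overlapped and the treated libraries of the lines did not. The falls were -3.51 in SUDHL4 and -1.29 in SUDHL6, a difference of -2.22 (SE 0.14, adjusted p = 1.6e-05), and over all alternatives the difference ran from -2.32 to -2.13.

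In the list of MYC and ribosome biogenesis 9 of 24 members were lower in SUDHL4 and 1 was higher (37.5 and 4.17%, against 12.2 and 8.95% of all members). The median change was -1.33 in SUDHL4 and -0.80 in SUDHL6. All 9 fell in both lines. NOP16, a nucleolar protein, measured 65.5, 67.4 and 60.4 FPKM in SUDHL4 controls and 14.7, 14.7 and 11.7 FPKM in treated SUDHL4, beside 75, 65.1 and 85.3 FPKM and 48.3, 33.2 and 43.1 FPKM in SUDHL6. The treated groups did not overlap, and the difference was -1.31 (SE 0.21, adjusted p = 0.00214). GNL3, nucleostemin, had a difference of -1.14 (SE 0.24, adjusted p = 0.00803) and POLR1C, a subunit of RNA polymerases that make ribosomal and transfer RNA, of -1.05 (SE 0.15, adjusted p = 0.00128). BYSL (-0.89), WDR12 (-0.79), NOLC1 (-0.79), ODC1 (-0.73), the first enzyme of polyamine synthesis, and NOC2L (-0.72) were the others. FBL, the methyltransferase fibrillarin, went the other way: it fell in SUDHL6 from 258 ± 29.8 to 127 ± 20.5 FPKM and was at 289 ± 6.71 and 259 ± 24.4 FPKM in SUDHL4 (difference 0.86, adjusted p = 0.00641). Leaving out 1 library gave 5 to 11 members lower, the lowest without SUDHL4 DMSO replicate 1. The count of higher members was 3 in place of 1 without SUDHL4 DMSO replicate 3 and without SUDHL6 inhibitor replicate 1.

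Mitochondrial ribosomal proteins were lower in 12 of 51 members and higher in 1 (23.5 and 1.96%, against 12.2 and 8.95% of all members). The lower count was 10 to 20 over all alternatives. The higher count was 5 without SUDHL6 inhibitor replicate 3, 2 without SUDHL6 DMSO replicate 2, 4 with a replicate block and 6 with median-ratio scaling. MRPL16 fell from 69.7 ± 5.22 to 15.8 ± 1.38 FPKM in SUDHL4 and from 36.3 ± 3.88 to 23.4 ± 3.43 FPKM in SUDHL6 (difference -1.46, adjusted p = 0.000457). MRPS26 (-1.23, adjusted p = 0.00477), MRPL27 (-1.17, adjusted p = 0.000482) and MRPL17 (-1.02, adjusted p = 0.0044) also fell in both lines. The list's median difference was -0.12, and 38 members were not past the test. Cytosolic ribosomal proteins had 0 of 39 members past the limma test in either direction, also 0 at an unadjusted p under 0.05, and up to 4 higher over the alternatives, with a median difference of 0.16.

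**Figure D3:**
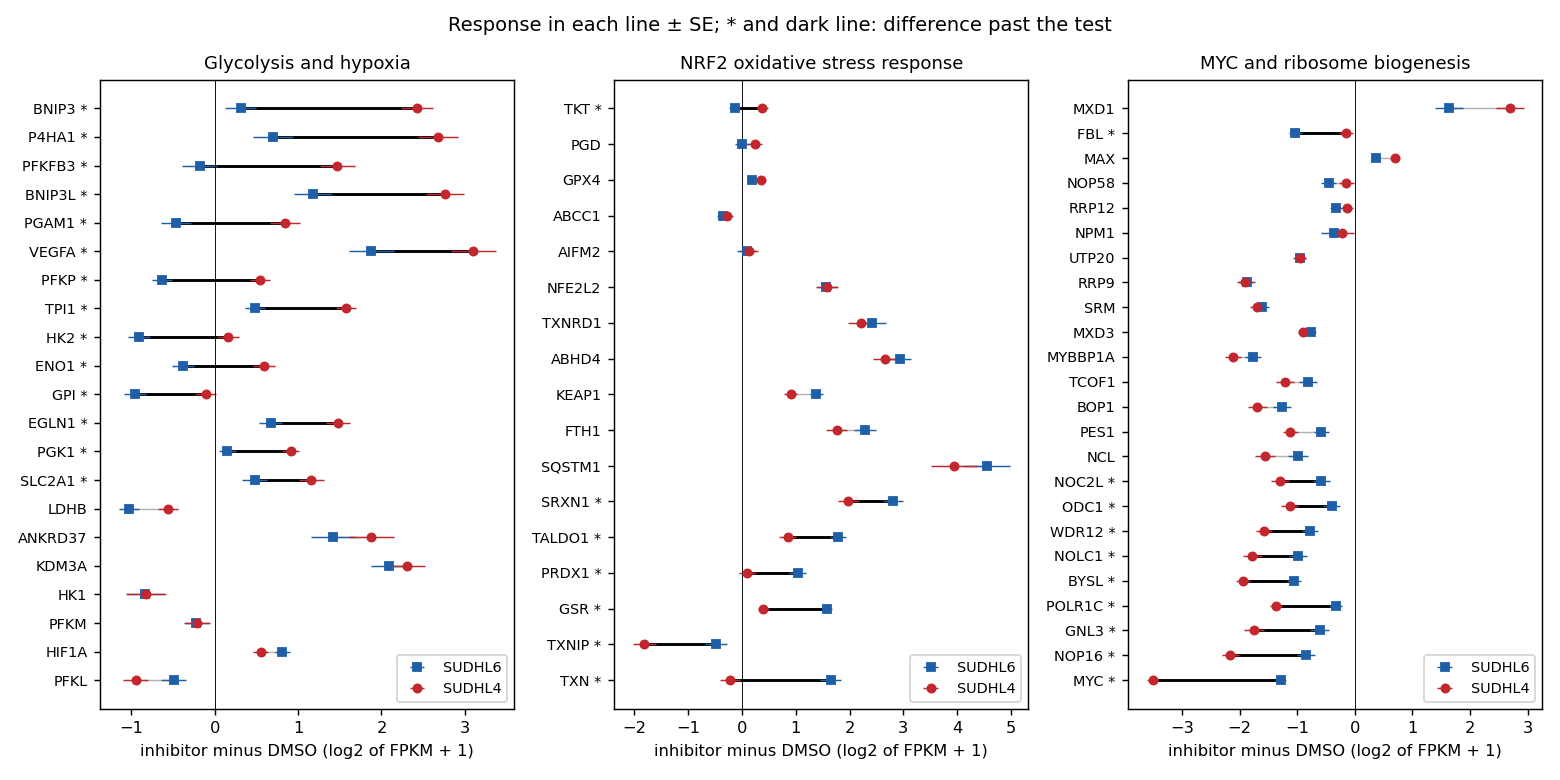
Change under the inhibitor ± SE (horizontal axes, log2 of FPKM + 1) in SUDHL6 (blue squares) and SUDHL4 (red circles) for members of 3 lists, with a dark line and an asterisk where the difference was past the test. SUDHL4 lies to the right for the 14 called glycolysis and hypoxia genes and to the left for the 6 called NRF2 genes drawn with a higher response in SUDHL6 and 9 called MYC and ribosome biogenesis genes.

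The called differences in the lists of MHC class II presentation and of the B cell surface were towards higher values in SUDHL4. The summed B cell markers given above lay lower in treated than in control libraries of both lines, and their part in these results was not tested. In the list of MHC class II presentation 5 of 10 members were higher in SUDHL4 (50%, against 8.95% of all members) and none was lower. All 5 fell in SUDHL6. HLA-DMA, a subunit of the peptide editor of class II molecules, measured 130, 131 and 137 FPKM in SUDHL4 controls and 184, 199 and 179 FPKM in treated SUDHL4, but 138, 134 and 196 FPKM and 78, 88.8 and 108 FPKM in SUDHL6. It rose in one line and fell in the other (difference 1.25, SE 0.21, adjusted p = 0.00281). HLA-DMB, its partner subunit, fell in both lines and by less in SUDHL4 (-1.35 beside -2.38, difference 1.04, adjusted p = 0.0128). HLA-DPA1 had a difference of 0.72 (adjusted p = 0.0127) and CIITA, the class II transactivator, of 1.07 (adjusted p = 0.0376). CD74, the invariant chain, had a difference of 0.63 (adjusted p = 0.034) that was lost in 12 of 25 alternatives. The count was 3 without any 1 of 9 libraries, which were all 6 of SUDHL4, SUDHL6 inhibitor replicate 2 and SUDHL6 DMSO replicates 2 and 3. A further 6 genes of the list lay only in merged loci.

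Of 17 B cell surface and FCRL receptors 5 were higher and none was lower (29.4% higher, against 8.95% of all members). The median difference was 0.66. CD37, a tetraspanin of mature B cells, measured 270, 318 and 237 FPKM in SUDHL6 controls and 119, 131 and 137 FPKM in treated SUDHL6. For SUDHL4 the levels were 224, 242 and 235 FPKM with DMSO against 341, 397 and 343 FPKM with the inhibitor. From overlapping baselines it fell in SUDHL6 and rose in SUDHL4, and the difference was 1.70 (SE 0.16, adjusted p = 0.000131). IL21R, the receptor of the germinal centre cytokine interleukin-21, rose in SUDHL4 from 18.6 ± 0.554 to 29.5 ± 0.429 FPKM and was at 3.51 ± 0.153 and 2.81 ± 0.794 FPKM in SUDHL6 (difference 0.90, adjusted p = 0.00746). CD52 (0.79) and MS4A1 (0.63), which encodes CD20, lost the call in 10 and 15 of 25 alternatives. The count ranged from 2 to 6 when 1 library was left out. It was 2 without SUDHL4 inhibitor replicate 1 or 2, SUDHL4 DMSO replicate 1 or 3, or SUDHL6 DMSO replicate 3, and 3 without SUDHL4 inhibitor replicate 3 or DMSO replicate 2 of either line.

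B cell receptor signalling had 4 of 26 members higher and 2 lower (15.4 and 7.69%, against 8.95 and 12.2% of all members). The counts were 3 to 7 and 1 to 4 when 1 library was left out. RASGRP3, a Ras exchange factor, fell in SUDHL6 from 56.4 ± 7.49 to 27.6 ± 6.64 FPKM and was at 44.3 ± 0.595 and 45.5 ± 1.93 FPKM in SUDHL4 (difference 1.06, adjusted p = 0.00624). PLCG2, the phospholipase downstream of the receptor, took the opposite course: it fell in SUDHL4 from 126 ± 11.3 to 45.8 ± 1.67 FPKM and was at 93.2 ± 8.52 and 81.2 ± 25.2 FPKM in SUDHL6 (difference -1.19, adjusted p = 0.0141).

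In the germinal centre list 5 of 25 members were higher and 2 lower (20 and 8%, against 8.95 and 12.2% of all members). The counts were 3 to 6 and 1 to 4 when 1 library was left out, and 6 were lower with a replicate block or array weights. CXCR5, the chemokine receptor that guides B cells into follicles, measured 21, 28 and 45.5 FPKM in SUDHL6 controls and 5.07, 7.89 and 15.3 FPKM in treated SUDHL6. SUDHL4 values were 28.8, 29.8 and 27.3 FPKM without and 31.1, 31.2 and 34.5 FPKM with the inhibitor. The SUDHL6 replicates spread widely but did not overlap between treatments, and the difference was 1.86 (SE 0.47, adjusted p = 0.0184). VPREB3, a B lineage protein of the pre-B receptor family, fell in both lines and by more in SUDHL6 (-1.53 beside -2.98, difference 1.45, adjusted p = 0.0039). LRMP, a germinal centre marker, fell in SUDHL4 and rose in SUDHL6 (difference -0.97, adjusted p = 0.00281).

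Of 27 genes that the literature holds to be BCL6 targets, 1 was higher and 4 lower in SUDHL4 (3.7 and 14.8%). The shares of all members were 8.95 and 12.2%, so the lower share of the list lay near that of all members. The lower count was 3 to 6 when 1 library was left out, 7 without both SUDHL6 replicate 3 libraries and 9 with a replicate block. The higher count was 0 without any 1 library other than SUDHL4 DMSO replicate 3, SUDHL6 inhibitor replicate 3 and SUDHL6 DMSO replicate 1, and 2 without the last. LITAF, a protein of late endosomes, measured 7.52, 4.98 and 7.05 FPKM in SUDHL6 controls and 52.8, 30.4 and 45.6 FPKM in treated SUDHL6. For SUDHL4 the levels were 17, 18.5 and 19.3 FPKM with DMSO against 24.8, 29.2 and 25.8 FPKM with the inhibitor. It rose in both lines and further in SUDHL6, with a difference of -2.01 (SE 0.27, adjusted p = 0.000924). GADD45A, a growth arrest and repair protein, rose in SUDHL6 from 2.82 ± 0.137 to 5.86 ± 1.55 FPKM and was at 14.8 ± 0.932 and 12.9 ± 0.701 FPKM in SUDHL4 (a change of 0.82 beside -0.18, adjusted p of the difference = 0.00778). The other members past the test were MYC, BCL6 and CD74, all described above. Corepressor genes of BCL6 had 3 of 21 members higher and none lower (14.3% higher). Among them TBL1XR1 (0.50) and USP7 (0.44) lost the call in 10 and 11 of 25 alternatives.

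**Figure D4:**
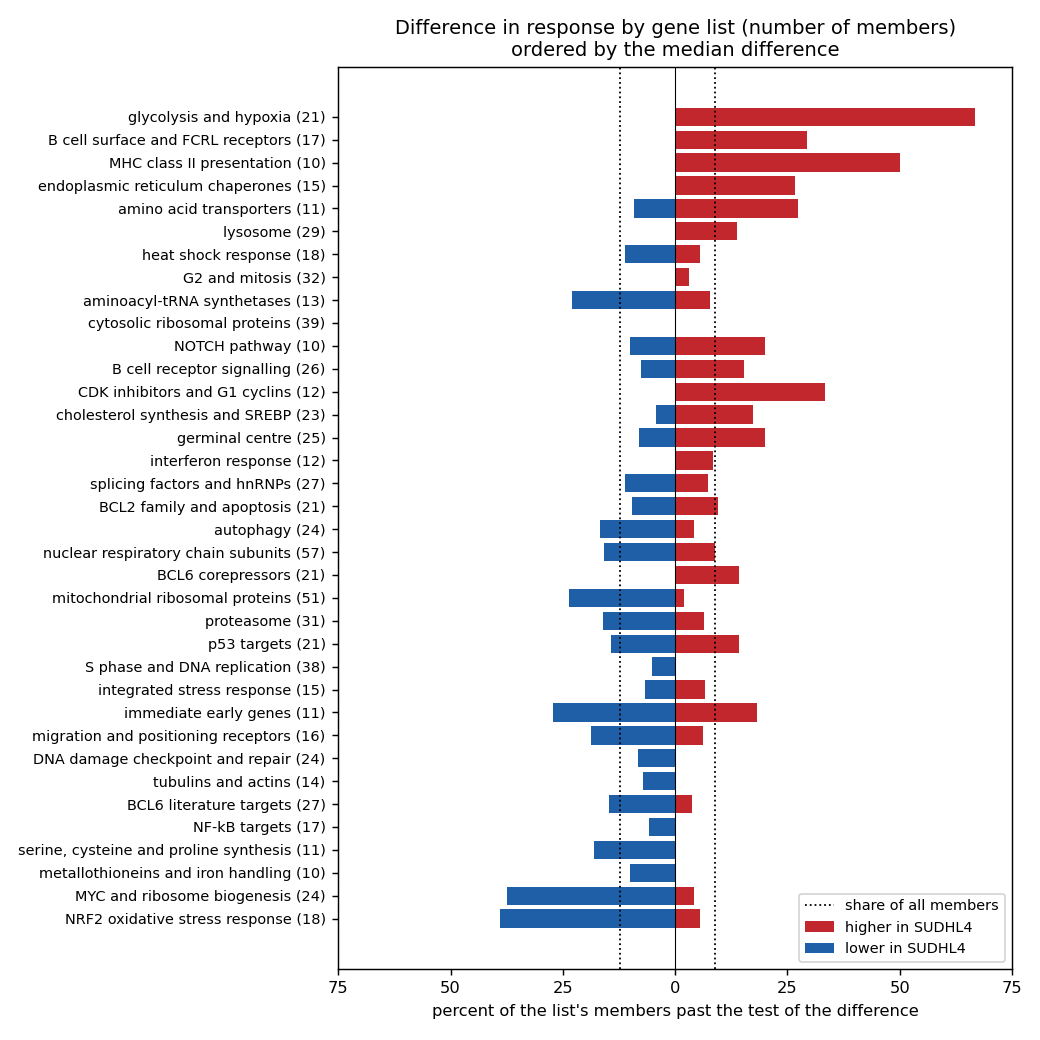
Share of the members of 36 lists that were past the test of the difference (horizontal axis, percent; higher in SUDHL4 to the right in red, lower to the left in blue), for lists of at least 10 members, with dotted lines at the shares of all members, 8.95 and 12.2%. Glycolysis and hypoxia reaches 66.7% higher, and the NRF2 response reaches 38.9% lower.

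In S phase and DNA replication 31 of 38 members fell in each line, against 38.8% of all members in SUDHL4 and 35.6% in SUDHL6. By the test of the difference 2 were lower in SUDHL4 (5.26%, against 12.2% of all members). That count ranged from 0 to 8 when 1 library was left out, and kept within 1.5 times for SUDHL4 DMSO replicate 3, SUDHL6 DMSO replicate 3 and SUDHL6 inhibitor replicates 2 and 3. With a replicate block it was 8, and with array weights 12. PCNA, the sliding clamp of replication, measured 135, 135 and 122 FPKM in SUDHL4 controls and 21.6, 24.3 and 19.2 FPKM in treated SUDHL4, and in SUDHL6 114, 134 and 207 FPKM and 55.5, 65.5 and 151 FPKM. It fell past the test in both lines, by -2.54 in SUDHL4 and -0.83 in SUDHL6 (adjusted p = 0.0487), although the SUDHL6 groups overlapped through replicate 3. The difference was -1.70 (SE 0.47, adjusted p = 0.026). That call was lost in 6 alternatives that left out 1 library, as was that of MCM6, a helicase subunit (-1.36, adjusted p = 0.0238). The locus of PCNA overlaps its antisense gene, and without a stated strand the reads of both cannot be told apart. Genes of G2 and mitosis had 1 of 32 members higher (3.12%, against 8.95% of all members) and none lower. The counts were 1 to 4 and 0 to 6 when 1 library was left out. Among CDK inhibitors and G1 cyclins 4 of 12 were higher and none lower (33.3%), with 2 to 4 higher when 1 library was left out. CDKN2C, an inhibitor of the G1 kinases, measured 30.8, 30.3 and 39.7 FPKM in SUDHL4 controls and 124, 141 and 98.6 FPKM in treated SUDHL4, beside 24.9, 30.4 and 25.1 FPKM and 17, 29.2 and 31.6 FPKM in SUDHL6. It rose in SUDHL4 alone past the test (difference 1.90, SE 0.31, adjusted p = 0.00241).

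The lysosome list had 4 of 29 members higher and none lower (13.8% higher, against 8.95% of all members). These 4 rose in both lines. LAMP1, the main protein of the lysosomal membrane, went from 36.2 ± 11.9 to 220 ± 21.6 FPKM in SUDHL4 and from 41.4 ± 5.1 to 109 ± 12.7 FPKM in SUDHL6 (difference 1.23, adjusted p = 0.0102). Chaperones of the endoplasmic reticulum had 4 of 15 higher and none lower (26.7%), with 2 to 6 higher when 1 library was left out, led by PDIA4, a disulfide isomerase that fell in SUDHL6 from 44.1 ± 7.33 to 14.6 ± 0.221 FPKM (difference 1.29, adjusted p = 0.000278). In the heat shock list 1 of 18 was higher and 2 lower (5.56 and 11.1%, against 8.95 and 12.2% of all members). The higher count was 3 without SUDHL4 DMSO replicate 3, and the lower count was 1 without any 1 of SUDHL4 inhibitor replicates 1 and 3, the 3 SUDHL4 DMSO libraries and SUDHL6 DMSO replicates 1 and 2. HSPB1, the small chaperone Hsp27, measured 25.6, 25.7 and 35.1 FPKM in SUDHL4 controls and 168, 213 and 127 FPKM in treated SUDHL4, beside 15.4, 18.6 and 20.5 FPKM and 20.9, 29.4 and 27.4 FPKM in SUDHL6 (difference 2.02, SE 0.29, adjusted p = 0.00129). HSP90AA1, the inducible cytosolic Hsp90, rose in both lines and further in SUDHL6 (difference -0.95, adjusted p = 0.014). The integrated stress response rose in 13 of 15 members in each line, against 29.2% of all members in SUDHL4 and 29.6% in SUDHL6. By the test of the difference 1 member was higher and 1 lower (6.67% each), JDP2 (1.56) and SESN2 (-0.88).

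AMICA1, an adhesion molecule of leukocytes, had the largest difference among the genes eligible to be named. It measured 7.8, 7.46 and 15.2 FPKM in SUDHL6 controls and 1.09, 2.09 and 2.03 FPKM in treated SUDHL6, and in SUDHL4 1.67, 1.65 and 2.52 FPKM and 6.71, 5.56 and 6.44 FPKM. The lines exchanged places, and the difference was 3.29 (SE 0.35, adjusted p = 0.000273). NR1D2, a nuclear receptor that represses clock genes, measured 2.82, 2.49 and 5.91 FPKM in SUDHL4 controls and 25.7, 25.9 and 24 FPKM in treated SUDHL4, and in SUDHL6 it stayed between 1.47 and 3.19 FPKM in all 6 libraries. Its difference was 2.64 (SE 0.36, adjusted p = 0.00103). PVRL1, the adhesion molecule nectin-1 (2.32), SH3D21 (2.10), ERAP2, a peptide trimmer for MHC class I (2.08), NSG1 (1.98) and ITGA6, an integrin subunit (1.83), followed. The call of ITGA6 was lost without SUDHL4 inhibitor replicate 3 and without SUDHL4 DMSO replicate 1 or 2.

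SOCS1, the feedback inhibitor of JAK-STAT signalling, had the most negative difference of the named genes. It measured 2.17, 2.49 and 0.701 FPKM in SUDHL6 controls and 12, 13.5 and 5.99 FPKM in treated SUDHL6, and in SUDHL4 8.59, 8.22 and 6.51 FPKM and 4.7, 5.65 and 4.98 FPKM. It rose past the test in SUDHL6, and its lower treated values in SUDHL4 did not pass it (-0.52, adjusted p = 0.163). The SUDHL4 groups did not overlap, but the test pools the spread of both lines. The difference was -2.56 (SE 0.43, adjusted p = 0.00281). HVCN1, the proton channel of B cells, fell in SUDHL4 from 44.7, 44.7 and 37.9 FPKM to 10.4, 9.55 and 12.3 FPKM, and in SUDHL6 was at 28, 29.6 and 33.2 FPKM and at 45.5, 45 and 25.3 FPKM (difference -2.19, SE 0.28, adjusted p = 0.000696). ZMYND19 (-1.96), the coregulator ZMIZ1 (-1.90), the calcium-binding protein S100A13 (-1.86), the RNA exosome subunit EXOSC4 (-1.78), ARHGAP9 (-1.76) and the semaphorin receptor PLXNB2 (-1.76) were the others. ZMIZ1 was at 1.57 ± 0.632 and 1.62 ± 0.524 FPKM and ARHGAP9 at 1.3 ± 0.542 and 1.34 ± 0.391 FPKM in SUDHL6 with DMSO and the inhibitor, levels at which the log2(FPKM + 1) scale compresses a change, and the call of PLXNB2 was lost without SUDHL4 DMSO replicate 1 or 2.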

How the data were processed

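FPKM of 34410 loci in each library were deposited by the authors. Per the submitters' processing notes, CASAVA 1.8, TopHat2 and Cufflinks were used with genome build hg19; neither strandedness nor annotation is given in the sources used here. A named locus was tested when 3 or more of the 12 libraries reached 1 FPKM. Its log2(FPKM + 1) entered limma 3.58.1 under R 4.3.3, with a mean for each group, an intensity trend and Benjamini-Hochberg adjustment over all 11346 loci at 0.05. The spread of a gene was pooled over all groups, so a test within SUDHL4 also carried the spread of SUDHL6. Fold changes on this scale understate those of low genes.

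Relative depth came from whole-read steps of the FPKM at unnamed loci of 56 bp (tolerance 0.02). Of the members, 1254 merge several genes, 510 share a name and 304 carry a small RNA symbol. They stayed in the tests and were not eligible to be named. Some loci of named genes are wide. Examples are SOCS1 (chromosome 16, 11338232 to 11445719), CD37 (chromosome 19, 49792824 to 49865714) and WDR11 (chromosome 10, 122215994 to 122806858). Whether reads of neighbouring genes entered their FPKM was not tested.

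Named genes are BCL6, the 12 largest differences in each direction among genes with lines that do not overlap, the 8 largest with opposite changes, and up to 4 per list, each past the test with a mean of at least 5 FPKM. Other genes of the glycolysis, NRF2, MYC, MHC class II, germinal centre, amino acid transporter, immediate early and mitochondrial lists were named after their values were seen. Repeated names were counted among primary contigs only, a reading chosen after seeing the files, since loci on alternate contigs (1249) were all at 0. Members and the 46 lists were chosen with earlier results of these data known. The test was checked on simulated data in which each gene had the same spread in all groups. That check does not cover the unequal spread of the lines or the SUDHL6 replicate 3 libraries that stood apart. Some results are not reported here. Python 3.11.15 with pandas 2.3.3, numpy 2.4.6 and matplotlib 3.10.9 made tables and plots. The alternatives are in the closing section.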

Additional observations from a re-analysis of the deposited data

Results flagged for a closer look

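The difference between the lines was itself tested, so every member past the test qualifies, 857 higher and 1172 lower in SUDHL4. Those past the test in opposite directions within the lines, 63 that rose in SUDHL4 and fell in SUDHL6 and 103 that did the reverse, are among them. The 8 largest of the first kind were AMICA1 (3.29), PVRL1 (2.32), ERAP2 (2.08), LIMK2 (1.73), a kinase of the actin regulator cofilin, CD37 (1.70), the metal importer SLC39A8 (1.54), DHCR7 (1.45), the last enzyme of cholesterol synthesis, and the phosphate carrier SLC20A1 (1.40). The 8 largest of the second kind were RTKN2 (-1.69), the lipid phosphatase PPAP2A (-1.67), the Ras regulator RASAL1 (-1.28), CCDC71L (-1.28), the small GTPase RAP2B (-1.21), CGRRF1 (-1.21), the transfer RNA methyltransferase TRMT1 (-1.18) and WDR11 (-1.17).

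The unnamed locus of the mitochondrial chromosome, used in no comparison, stood at 1678, 1521 and 1872 FPKM in SUDHL4 inhibitor replicates 1 to 3 and was listed at 0 in the 3 SUDHL4 DMSO libraries. In SUDHL6 it was at 2425 FPKM in DMSO replicate 3 and 2776 FPKM in inhibitor replicate 3, and at 0 in the other 4 libraries. In SUDHL4 the split followed the treatment, so a difference between libraries and the treatment cannot be told apart there. Its part in the results was not tested.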

How the results depend on the processing

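With 857 members higher and 1172 lower as reported, array weights gave 1401 and 2033 and the fit of all 18 libraries gave 1321 higher. Median-ratio scaling gave 1096 higher and 1070 lower, so 50.6% of the calls were higher in place of 42.2%. The excess of lower members thus depended on the scaling. Leaving out 1 library gave 502 to 1019 higher and 723 to 1428 lower. Opposite changes (63 and 103 members) numbered 104 and 169 with array weights, 163 for the second kind with all 18 libraries, 97 for the first kind without both SUDHL6 replicate 3 libraries, and 44 to 81 and 60 to 127 without 1 library. With median-ratio scaling opposite changes numbered 92 and 95. The median absolute change in SUDHL4 (0.577) was 0.609 with array weights, 0.597 for members at 5 FPKM or more, 0.655 and 0.62 with pseudocounts of 0.1 and 0.5, 0.561 after quantile normalization and 0.562 to 0.608 without 1 library. Pearson's r (0.739) was 0.716 with members chosen over all 6 libraries of a line, 0.698 with a pseudocount of 0.1 and 0.67 to 0.75 without 1 library. The cause of these shifts was not tested. As deviations from their group means, DMSO and inhibitor libraries with the same replicate number correlated at 0.384 to 0.705 in SUDHL6. In SUDHL4 they correlated at -0.0596 to 0.0908. In SUDHL6 replicates 1 and 2 also correlated across unlike numbers, at 0.361 and 0.402. Pairs of replicate 3 with replicate 1 or 2 stood at -0.579 to -0.504, so replicate 3 was set apart from both. The numbers were not taken to pair the samples of both lines. A replicate block gave 1176 higher and 1481 lower, with 104 opposite changes of the first kind. Of 132 named genes 99 passed the test in all 25 alternatives, 33 lost the call in at least 1, and 0 reversed. Depth in reads is unknown, so low genes carry an error that could not be given.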

Other observations

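Genes of metabolism and of stress outside the lists described above also differed. STARD4, a carrier of cholesterol within the cell, rose in SUDHL4 from 8.34 ± 1.54 to 29.4 ± 1.46 FPKM and was at 13 ± 2.18 and 14.4 ± 1.67 FPKM in SUDHL6 (SD, n = 3; difference 1.57, SE 0.20, adjusted p = 0.000666). In the cholesterol list 4 of 23 members were higher and 1 lower (17.4 and 4.35%, against 8.95 and 12.2% of all members). Aminoacyl-tRNA synthetases had 1 of 13 members higher and 3 lower (7.69 and 23.1%). The higher one was QARS (0.90, adjusted p = 0.00142). The lower ones were RARS (-0.90, adjusted p = 0.00907), VARS (-0.79, adjusted p = 0.0123) and FARSB (-0.79, adjusted p = 0.01). Amino acid transporters had 3 of 11 higher and 1 lower (27.3 and 9.09%). The higher ones were SLC43A2 at 0.78 (adjusted p = 0.000661), SLC7A5, which rose in both lines, at 0.73 (adjusted p = 0.0124) and SLC1A4 (adjusted p = 0.0411, difference 0.85 to 1.35 over the alternatives), whose call was lost in 11 of 25 alternatives. The lower one was SLC36A1 (-0.62, adjusted p = 0.011), which rose in SUDHL6 and was not past the test in SUDHL4. Of 11 immediate early genes 2 were higher and 3 lower (18.2 and 27.3%). The higher ones were IER5 (1.37, adjusted p = 0.0323), which rose in both lines, and KLF10 (0.98, adjusted p = 0.0309), which rose in SUDHL4 and was not past the test in SUDHL6. That count was 0 without SUDHL4 inhibitor replicate 1 or 2, SUDHL4 DMSO replicate 1 or 2 or SUDHL6 inhibitor replicate 2, and 1 without any 1 of the SUDHL6 DMSO libraries or with a replicate block. Of the lower ones, MYC is described above, and NR4A1 (-1.28, adjusted p = 0.00554) and IER2 (-1.31, adjusted p = 0.00481) rose in SUDHL6 and were not past the test in SUDHL4. ATG2A, a lipid transfer protein of autophagy, rose in SUDHL6 from 6.9 to 21.3 FPKM in the mean and was at 4.52 and 5.74 FPKM in SUDHL4 (difference -1.19, adjusted p = 0.00662).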
